A study of Mus musculus with 18 samples.

Results

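The effect of deleting Ubqln1 was examined in splenic B cells stimulated for 4 hr through the B cell receptor (BCR). The comparison took 6 of the 18 RNASeq libraries in the study, 3 from WT and 3 from Ubqln1-/- (KO) mice, all given 10 μg/mL of an anti-IgM F(ab)2 antibody that crosslinks the BCR. All genes were considered, and 14161 of the 28096 in the files had enough reads to be tested. The knockout was germline: exon 2 was deleted in C57BL/6 ES cells, so every cell of the mouse carried it, and no promoter or Cre restricted it to B cells. The labels give the strain of both genotypes as C57BL/6 N and the mice as at least 8 weeks old. WT littermates are named for other experiments of the study, and neither the labels nor the methods say so for the RNASeq. B cells were purified from spleen with a magnetic isolation kit, and each library pooled triplicate wells. The other 12 libraries, resting or given 20 μg/mL LPS for the same 4 hr, 3 for each genotype, entered the same fit and were used to see whether a difference was also there without anti-IgM.

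Ubiquilins are cytosolic proteins with a ubiquitin-like domain, which binds the proteasome, and a ubiquitin-associated domain, which binds ubiquitin chains. Between them lie methionine-rich stretches that hold hydrophobic segments of client proteins, among them membrane proteins that failed to reach the mitochondrion or the endoplasmic reticulum. BCR crosslinking sets off kinase and calcium signaling, immediate early transcription factors, MYC, growth of the cell and, later, D-type cyclins. The mRNA measured here shows the transcript side of that response and says nothing of protein stability.

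The 6 libraries held between 19875860 and 31338757 counted reads. Levels are given as CPM, the count per 1000000 reads after TMM scaling, whose factors ran from 0.994 to 1.02, and a difference is the log2 fold change of KO over WT ± SE. Adjusted p-values are those of edgeR's quasi-likelihood test with Benjamini-Hochberg adjustment over all 14161 genes. A gene is said to rise or fall where that value is under 0.05. Same-numbered WT and KO libraries deviated together, so a second fit held the replicate number constant (the blocked fit). The study calls the RNASeq replicates independent experiments, and the labels do not say how many mice each library came from. The p-values therefore measure the spread between libraries, estimated over all 18 and not over the 6 alone. Without the block, libraries of the same number in different conditions were treated as independent.

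Ubqln1 mRNA fell to 37.3% of the WT level. It was 320, 339 and 319 CPM in the WT libraries and 111, 125 and 128 CPM in the KO libraries. The 3 KO libraries lay far below the 3 WT libraries. The log2 fold change was −1.42 ± 0.0724 (95% interval −1.58 to −1.27, adjusted p = 1.1e-08). Per length, the RPKM of Ubqln1, computed here from the counts after TMM scaling, averaged 88.4 ± 3.13 in WT and 33.0 ± 2.49 in KO cells (mean ± SD of 3 libraries each). The deletion covers exon 2 alone, so reads of the other exons can be counted, and the files give 1 count for the whole gene. Ubqln1 lies at chr13:58176156-58215653 (GRCm38). Exon 2 of 11, shown because it is the deleted piece, is at chr13:58198919-58199070 on the minus strand, in the GENCODE transcript of 3686 bases. Its 152 bases are all coding, which the capitals mark, and are not a multiple of 3.
Ubqln1 exon 2: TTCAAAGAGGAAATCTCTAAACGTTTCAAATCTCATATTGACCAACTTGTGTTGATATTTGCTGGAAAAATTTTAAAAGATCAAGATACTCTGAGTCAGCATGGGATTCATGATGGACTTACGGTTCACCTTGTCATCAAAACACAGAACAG
It makes up 4.12% of that transcript. The other tested genes within 1000000 bases of Ubqln1 numbered 7, from Hnrnpa0 to Rmi1, and none was called in either fit.

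The paralogs did not differ detectably. Ubqln2 was 58.8, 60.1 and 57.2 CPM in WT and 57.6, 59.8 and 59.2 CPM in KO cells, and the 95% interval of its log2 fold change ran from −0.10 to 0.10. Ubqln4 was 231, 294 and 266 CPM in WT and 239, 269 and 272 CPM in KO cells, with an interval from −0.25 to 0.21. Both groups overlapped for both genes. Of 24 tested genes for ubiquilins and for factors that sort hydrophobic proteins in the cytosol (Bag6, Sgta and the GET pathway among them), Ubqln1 was the one called in either fit, and the highest log2 fold change was 0.07. The most abundant, Bag6, a chaperone that holds tail-anchored proteins, was 338, 343 and 359 CPM in WT and 333, 327 and 346 CPM in KO cells.

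Besides Ubqln1, 13 genes differed between genotypes after anti-IgM. In all, 14 of 14161 genes were called (0.0989%), 12 higher in KO (0.0847%) and 2 lower (0.0141%), while 728 genes (5.14%) had an unadjusted p under 0.05. With the blocked fit, 94 genes were called (0.664%), 67 higher (0.473%) and 27 lower (0.191%), among them all 14. At the study's own cutoffs, a log2 fold change over 2 with an adjusted p under 0.001, Vill passed (0.00706%), and in the blocked fit Vill and Entrez gene 100504785 passed (0.0141%). The calls rest on every library: leaving out WT replicate 1, 2 or 3 gave 8, 2 and 3 calls, and leaving out KO replicate 1, 2 or 3 gave 3, 2 and 10. Ubqln1 and Vill remained in all 6 of these fits. Fitting the 6 libraries alone gave 2 calls, limma with voom 18 and DESeq2 47.

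**Figure D1:**
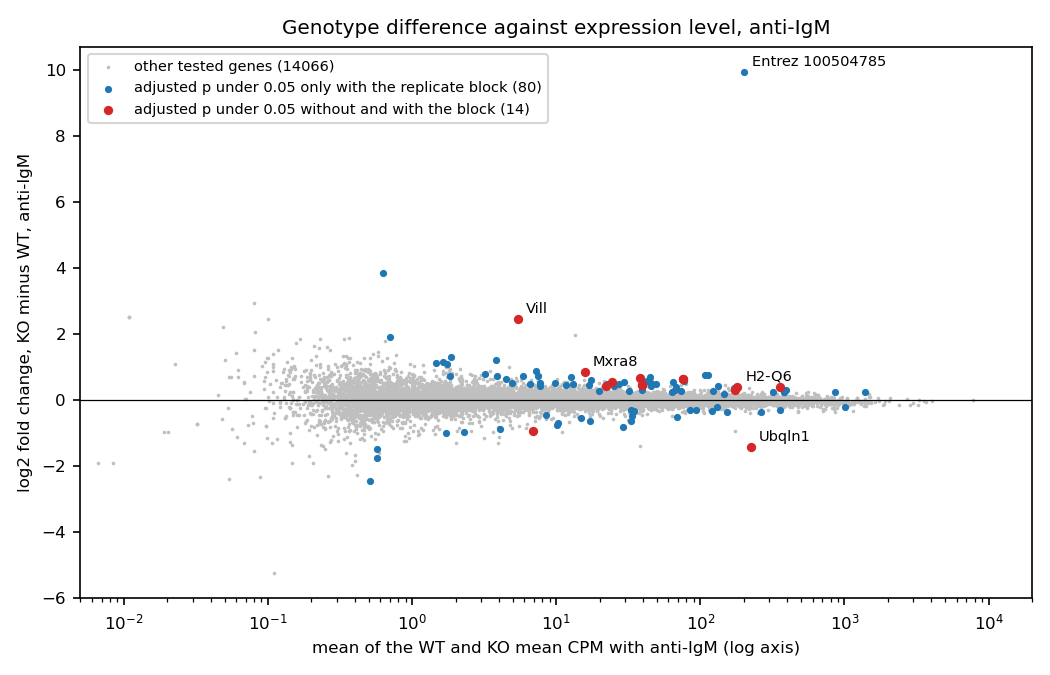
Log2 fold change of KO over WT after anti-IgM (vertical axis) against the mean level of a gene in CPM (horizontal log axis) for 14160 of the 14161 tested genes, the remaining 1 having no counts in these 6 libraries. Red points are the 14 genes at adjusted p under 0.05 in both fits and blue points those called only in the blocked fit. Ubqln1 at −1.42 and Vill at 2.46 stand apart from the band around 0, and Entrez gene 100504785 lies at the top.

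The band around 0 was narrow for most genes, though single fitted differences ran from −5.25 to 9.93. The median log2 fold change over all genes was 0.00199, with 7181 fitted above 0 and 6980 below. For 12444 of the 14161 genes (87.9%) the 95% interval of the genotype difference lay within 1 on the log2 scale, that is, within a doubling or its inverse. The median interval reached 0.240 to either side, and 0.176 in the blocked fit. A gene of median precision thus needed a difference beyond that size before its interval left out 0, and genes with narrower intervals a smaller one. The intervals are not adjusted for the number of genes, so a call needed a larger difference still. H2-K1, with an interval from 0.134 to 0.377, was not called without the block (adjusted p = 0.164).

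The genes that rose were led by Vill (chr9:119052729-119071525), which encodes villin-like, a protein of the villin and gelsolin family of actin binders. It was 2.11, 1.59 and 1.27 CPM in WT and 10.6, 8.17 and 8.81 CPM in KO cells. Every KO library was above every WT library, by 2.46 ± 0.236 on the log2 scale (adjusted p = 8.76e-05). Behind the low level stood 53, 42 and 25 reads in WT and 319, 261 and 193 in KO libraries.

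Mxra8, a cell-surface protein with immunoglobulin-like domains that serves as an entry receptor for some alphaviruses, was 10.3, 11.8 and 11.9 CPM in WT and 22.6, 18.2 and 19.8 CPM in KO cells. It rose by 0.84 ± 0.138 (adjusted p = 0.0347). Rubcn, which encodes Rubicon, a regulator of autophagy and of phagocytosis assisted by LC3, was 157, 160 and 153 CPM in WT and 188, 200 and 187 CPM in KO cells. Its rise of 0.29 ± 0.0524 was the smallest among the called genes, with little spread within either group (adjusted p = 0.0399). Zfp839, a zinc finger protein gene, was 18.8, 19.3 and 19.2 CPM against 24.3, 25.7 and 26.3 CPM (0.41 ± 0.0716, adjusted p = 0.0399). 1700001L05Rik, annotated as a long noncoding RNA, was 18.8, 19.5 and 21.1 CPM against 26.7, 28.6 and 30.5 CPM (0.53 ± 0.0892, adjusted p = 0.0375). None of these genes overlapped between the genotypes. Mxra8, Rubcn, Zfp839 and 1700001L05Rik each lost the call whichever library was left out, with adjusted p up to 0.278.

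Another 3 called genes had no symbol in the reference table, and so no position here. Entrez gene 68395 was 316, 307 and 306 CPM in WT and 397, 438 and 378 CPM in KO cells, and Entrez gene 676708 was 32.9, 27.7 and 28.3 CPM against 46.4, 52.9 and 40.4 CPM. Both rose by 0.39 ± 0.0664 and 0.66 ± 0.118. Entrez gene 100862489 was 7.66, 7.92 and 11.9 CPM in WT and 4.99, 5.10 and 4.02 CPM in KO cells. It was the only called gene besides Ubqln1 that fell (−0.94 ± 0.169). The adjusted p was 0.0399 for all 3. Of the 6 fits that left out 1 library, Entrez genes 68395 and 676708 kept the call only without KO replicate 3, and Entrez gene 100862489 only without WT replicate 1.

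**Figure D2:**
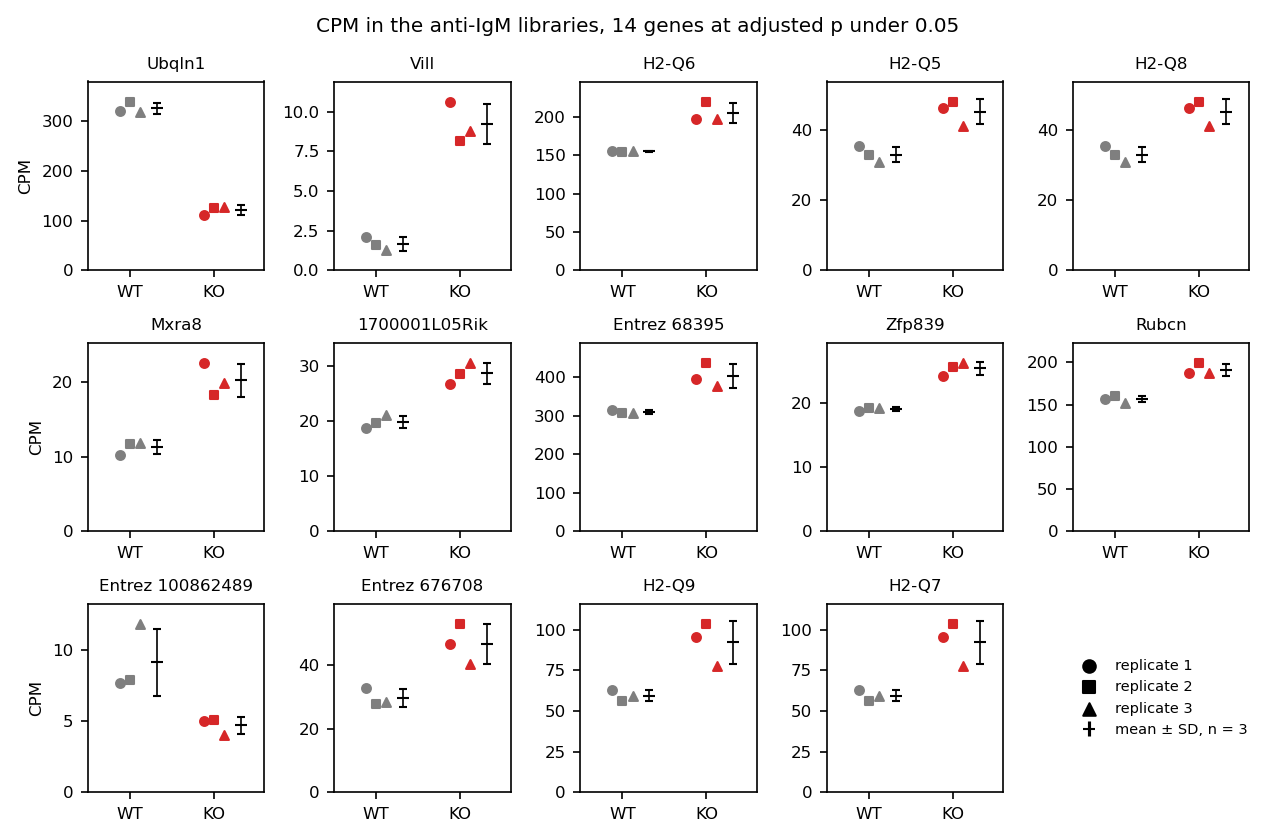
Level in CPM (vertical axes, each starting at 0) of the 14 called genes in the 3 WT (grey) and 3 KO (red) anti-IgM libraries, with the replicate number as the symbol and the mean ± SD of 3 libraries as the bar. In each panel the 3 KO points lie wholly above or wholly below the 3 WT points.

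MHC class I molecules present peptides on the cell surface. They consist of a heavy chain encoded in the H2 complex on chromosome 17 and of B2m, and they are loaded by the TAP transporter with peptides cut by the immunoproteasome. The classical heavy chains in these mice are H2-K1 and H2-D1, and the H2-Q family holds nonclassical chains, including the Qa-2 antigens, as well as pseudogenes. Members of the H2-Q family made up 5 of the 12 genes that rose, and 1 of these 5, H2-Q5, is annotated as a transcribed pseudogene.

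H2-Q6 (chr17:35424850-35430055) was 155, 154 and 155 CPM in WT and 198, 220 and 197 CPM in KO cells. The WT libraries were nearly equal and all KO libraries were above them, by 0.40 ± 0.0578 on the log2 scale (adjusted p = 0.013). H2-Q7 (chr17:35439140-35443773) was 62.9, 56.3 and 59.5 CPM in WT and 95.4, 104 and 78.0 CPM in KO cells, a rise of 0.63 ± 0.114 (adjusted p = 0.0399). H2-Q9 carried exactly the counts of H2-Q7 in 18 of 18 libraries. H2-Q5 (chr17:35394099-35395630) was 35.3, 32.8 and 30.8 CPM in WT and 46.3, 48.0 and 41.3 CPM in KO cells, a rise of 0.46 ± 0.0698 (adjusted p = 0.0176). H2-Q8 had the same counts as H2-Q5 in 8 of 18 libraries and differed by at most 4 reads in the others. These near-identical genes share reads, so which member of each pair rose is uncertain, and each pair is 1 observation. With each such pair counted once, 12 genes were called in place of 14. The calls of the 5 H2-Q genes also rested on single libraries. All 5 were lost without WT replicate 2, WT replicate 3 or KO replicate 2, those of H2-Q5, H2-Q7, H2-Q8 and H2-Q9 without KO replicate 1, and those of H2-Q7 and H2-Q9 without WT replicate 1, with adjusted p up to 0.292. Without KO replicate 3 all 5 kept the call. With the 6 libraries fitted alone, 0 of the 5 were called (adjusted p from 0.332 to 0.352), while the blocked fit of the same 6 called all 5.

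The classical genes were called in the blocked fit and by DESeq2 but not by edgeR without the block, and are named here after their values were seen. H2-K1 was 1273, 1223 and 1291 CPM in WT and 1530, 1584 and 1406 CPM in KO cells, a difference of 0.26 ± 0.0576 (adjusted p = 0.164, blocked 0.0277). H2-D1 was 796, 754 and 819 CPM in WT and 915, 968 and 898 CPM in KO cells, a difference of 0.23 ± 0.0567 (adjusted p = 0.239, blocked 0.0435). Neither gene overlapped between genotypes. B2m, the shared light chain, was 1517, 1349 and 1407 CPM in WT and 1576, 1568 and 1448 CPM in KO cells and did overlap (0.10 ± 0.0663, adjusted p = 0.997). Tap1, a subunit of the peptide transporter, was 139, 117 and 142 CPM against 165, 167 and 148 CPM without overlap, and did not pass either fit (blocked adjusted p = 0.0961).

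Of 24 tested MHC class I genes (heavy chains, B2m, the peptide loading machinery and the immunoproteasome subunits), 5 rose, 7 did so in the blocked fit and 0 fell, while over all genes 0.0847% and 0.473% rose. All 24 were fitted above 0, with a median of 0.225 on the log2 scale against 0.00199 for all genes. In 11 of them the KO libraries lay wholly above the WT libraries, a pattern found in 6.32% of all genes, and in 0 wholly below, against 5.08%. Taking each pair with shared counts once left 22 genes, with 3 called, 5 called in the blocked fit and a median of 0.211. Without the H2-Q genes, 17 of 17 were fitted above 0 with a median of 0.110, of which 0 were called and 2 were called in the blocked fit. The median differed between pairs of libraries: 0.24 for replicate 1, 0.39 for replicate 2 and 0.08 for replicate 3.

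**Figure D3:**
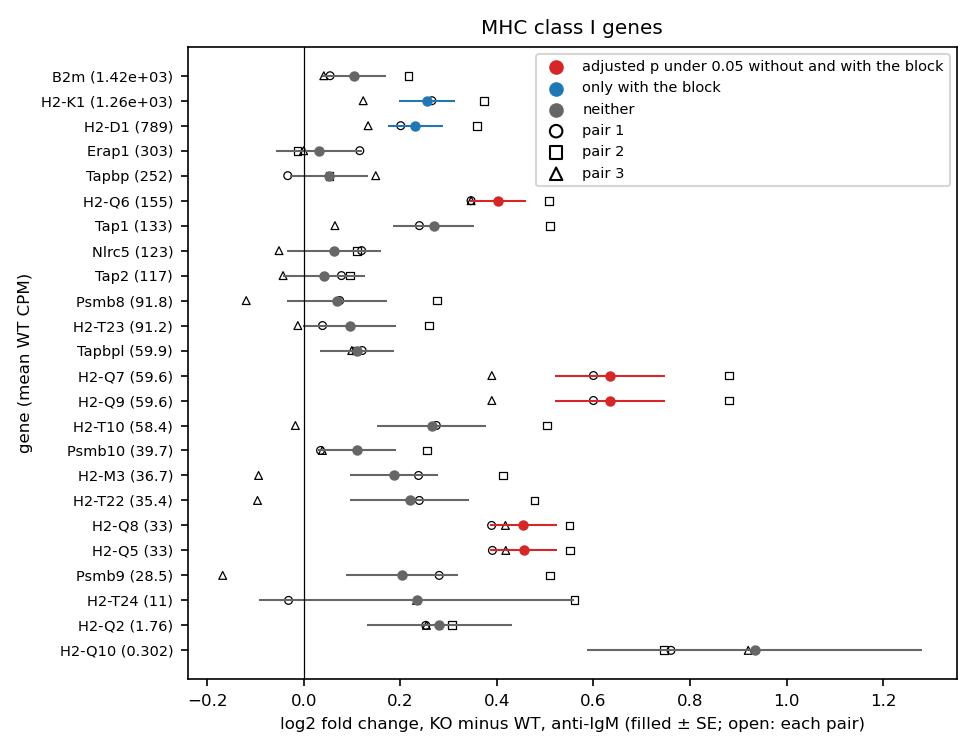
Log2 fold change of KO over WT after anti-IgM (horizontal axis) for the 24 tested MHC class I genes, with the mean WT level in CPM after each name. Filled points are the fit with ± SE, red where called in both fits and blue where called only in the blocked fit, and open symbols are the 3 same-numbered pairs. All filled points lie to the right of 0, and pair 2 is mostly the farthest right.

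The 250 bases upstream of an annotated start (RefSeq, GRCm38.p6) are shown for H2-Q6, H2-Q7, H2-K1 and H2-D1, read in the direction of transcription. H2-K1 had 2 annotated starts, and the more upstream one was used. The window of H2-K1 still lies inside the annotated gene (chr17:33996012-34000619), and that of H2-Q7 reaches into its gene. H2-Q5, H2-Q8 and H2-Q9 are named only. Capitals mark exact matches to 3 strings searched on both strands. GGGATTCCC is part of a binding sequence of NF-κB, GTTTCACTT a part of an interferon response element, and TGACG the half-site of a cyclic AMP response element.
H2-Q6, chr17:35424600-35424849, plus strand: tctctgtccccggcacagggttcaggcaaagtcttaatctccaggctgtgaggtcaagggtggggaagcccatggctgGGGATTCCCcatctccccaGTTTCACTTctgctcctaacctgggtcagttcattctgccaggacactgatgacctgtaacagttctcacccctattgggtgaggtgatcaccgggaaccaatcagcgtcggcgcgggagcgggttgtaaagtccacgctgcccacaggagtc
H2-Q7, chr17:35438905-35439154, plus strand: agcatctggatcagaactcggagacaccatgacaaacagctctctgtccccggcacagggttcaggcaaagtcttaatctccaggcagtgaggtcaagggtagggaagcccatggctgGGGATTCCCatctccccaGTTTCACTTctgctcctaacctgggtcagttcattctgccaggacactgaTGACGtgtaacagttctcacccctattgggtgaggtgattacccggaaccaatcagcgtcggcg
H2-K1, chr17:34000348-34000597, minus strand: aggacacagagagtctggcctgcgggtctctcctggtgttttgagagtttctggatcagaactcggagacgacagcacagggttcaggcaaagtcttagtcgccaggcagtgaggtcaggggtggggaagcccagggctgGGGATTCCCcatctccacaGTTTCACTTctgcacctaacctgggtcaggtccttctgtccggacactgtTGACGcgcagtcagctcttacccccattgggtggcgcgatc
H2-D1, chr17:35262844-35263093, plus strand: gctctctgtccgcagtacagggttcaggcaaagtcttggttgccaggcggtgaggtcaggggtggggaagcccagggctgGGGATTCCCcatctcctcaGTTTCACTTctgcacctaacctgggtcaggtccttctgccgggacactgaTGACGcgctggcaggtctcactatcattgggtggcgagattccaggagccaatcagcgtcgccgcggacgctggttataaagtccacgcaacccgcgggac
GTTTCACTT was in 4 of the 4 and in 111 of 32851 promoter windows of that length (0.338%). GGGATTCCC was in 4 of the 4 and in 99 of the 32851 windows (0.301%). TGACG was in H2-Q7, H2-K1 and H2-D1, 3 of the 4, and in 5836 windows (17.8%). Around GGGATTCCC and GTTTCACTT the 4 windows read nearly the same, so they are not 4 separate observations. A match describes the letters in this window and is not a measured binding site. Whether these strings bear on the genotype difference was not tested.

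Interferon-stimulated genes were mostly fitted a little higher in KO cells without being called in the fit without the block. Of 49 tested, 39 were fitted higher and 10 lower, with a median of 0.149. In edgeR, 0 were called and 7 had an unadjusted p under 0.05 (against 5.14% of all genes), all of them higher, and limma with voom and DESeq2 called 0. The blocked fit called Gbp3, an interferon-induced GTPase, which was 21.8, 17.2 and 16.8 CPM in WT and 26.6, 27.5 and 24.2 CPM in KO cells (0.49 ± 0.125, adjusted p = 0.264, blocked 0.0173). Gbp5, which was not on the list, was called there as well, at 11.1, 9.47 and 9.17 CPM against 14.4, 14.2 and 12.1 CPM (blocked adjusted p = 0.0478). The list's median was 0.19 in pair 1, 0.37 in pair 2 and −0.01 in pair 3, so the third pair did not share the direction. The most abundant member, Adar, an RNA-editing enzyme, was 245, 243 and 244 CPM in WT and 245, 245 and 249 CPM in KO cells. Ifi44 had the largest fitted difference, but at 0.0399, 0.0379 and 0.152 CPM against 0.266, 0.407 and 0.0913 CPM, which is close to absent in both.

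The blocked fit compares each KO library with the WT library of the same number. Of its 94 calls, 94 went the same way in all 3 pairs and 84 did not overlap between genotypes, counts that the choice of genes by this fit favors. Over all genes, 6.32% lay higher in KO without overlap and 5.08% lower. Of the 94, 5 had a mean under 1 CPM. The blocked fit too leaned on single pairs, with 73 calls without replicate 1, 6 without replicate 2 and 25 without replicate 3. Except for Entrez gene 100504785, the genes described next had modest differences.

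Il9r, the receptor chain for interleukin 9, was 66.5, 79.9 and 106 CPM in WT and 128, 139 and 159 CPM in KO cells. In each pair the KO library was the higher, and no KO library reached down to a WT library (0.76 ± 0.166, adjusted p = 0.147, blocked 0.000318). Spata13, a guanine nucleotide exchange factor for small GTPases, was 51.3, 45.7 and 60.1 CPM against 71.8, 70.4 and 88.6 CPM (0.56 ± 0.142, adjusted p = 0.264, blocked 0.000106). Rgs16, which shortens signaling by G protein-coupled receptors, was 9.53, 9.09 and 10.13 CPM against 15.4, 12.8 and 18.3 CPM (0.69 ± 0.160, adjusted p = 0.189, blocked 0.00495). These 3 genes rose in the blocked fit without overlap. Spp1, which encodes the secreted phosphoprotein osteopontin, was 89.0, 88.0 and 62.7 CPM in WT and 126, 125 and 156 CPM in KO cells (0.76 ± 0.147, adjusted p = 0.0743, blocked 0.00779). Averaged over both genotypes, Spp1 was also 4.70 higher on the log2 scale after anti-IgM than in resting cells.

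Of the other genes that rose in the blocked fit, Hspg2, which encodes the matrix proteoglycan perlecan, was 1.99, 2.80 and 2.08 CPM in WT and 5.53, 6.23 and 4.15 CPM in KO cells (1.21 ± 0.302, adjusted p = 0.263, blocked 0.00145). Lrrc8b, a subunit of volume-regulated anion channels, was 9.26, 11.9 and 11.8 CPM against 13.7, 14.7 and 17.7 CPM (0.48 ± 0.121, adjusted p = 0.264, blocked 0.0111). Pde7b, a phosphodiesterase for cyclic AMP, was 1.16, 1.10 and 0.810 CPM against 2.56, 2.13 and 2.14 CPM (1.14 ± 0.228, adjusted p = 0.0829, blocked 0.0117). None of them overlapped between genotypes. Entrez gene 436493, without a symbol, was 164, 136 and 152 CPM against 196, 193 and 189 CPM (0.36 ± 0.0668, adjusted p = 0.0572, blocked 0.00388).

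Among the genes that fell in the blocked fit, Emb, which encodes embigin, a membrane glycoprotein that escorts monocarboxylate transporters, was 29.5, 40.3 and 40.9 CPM in WT and 20.7, 23.5 and 19.0 CPM in KO cells (−0.80 ± 0.170, adjusted p = 0.121, blocked 0.00587). Abca5, a lipid transporter of the ABC family, was 4.07, 4.77 and 6.89 CPM against 2.83, 2.51 and 3.29 CPM (−0.87 ± 0.257, adjusted p = 0.464, blocked 0.00865). Crim1, a transmembrane protein that binds bone morphogenetic proteins, was 8.82, 13.5 and 16.1 CPM against 6.03, 7.77 and 9.95 CPM (−0.70 ± 0.260, adjusted p = 0.753, blocked 0.00408). The Crim1 groups overlapped, and the difference appears only within pairs. Nlrx1, Clpb and Cox6b2, which encode mitochondrial proteins and were chosen after their values were seen, rose in the blocked fit. None of them was called without the block. They were picked from the 67 genes that rose in the blocked fit (0.473% of all genes). That fit called 0 of 76 respiratory chain and ATP synthase genes, 0 of 78 mitochondrial ribosomal protein genes and 0 of 39 import genes. Nlrx1, a mitochondrial member of the NLR family, was 4.71, 5.64 and 6.43 CPM against 10.7, 8.71 and 8.53 CPM (blocked adjusted p = 0.0193). Clpb, a disaggregase of the mitochondrial intermembrane space, was 33.6, 36.2 and 35.7 CPM against 40.7, 45.2 and 44.7 CPM (blocked adjusted p = 0.0205). Cox6b2, a subunit of cytochrome c oxidase, was 0.359, 0.341 and 0.152 CPM in WT and 1.43, 1.03 and 0.867 CPM in KO cells (1.92 ± 0.457, adjusted p = 0.221, blocked 0.00353), from 9, 9 and 3 reads against 43, 33 and 19.

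Entrez gene 100504785, which has no symbol in the table, had the largest difference of all. It was 0.558, 0.265 and 0.405 CPM in WT and 322.9, 865.8 and 17.8 CPM in KO cells. Those levels rest on 14, 7 and 8 reads in the WT libraries and 9697, 27648 and 390 reads in the KO libraries. The KO libraries spanned a wide range, and the fit without the block did not call the gene (9.93 ± 2.04, adjusted p = 0.0961), while the blocked fit did (10.00 ± 0.465, adjusted p = 6.63e-10). The same order of the numbered KO libraries appeared without anti-IgM, at 552, 1472 and 28.4 CPM in resting and 488, 1244 and 23.1 CPM in LPS-treated cells, where WT libraries reached at most 1.03 CPM.

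Next, the response to BCR crosslinking itself was compared between genotypes. The response genes were the 576 genes (4.07% of those tested) whose level changed by over 2 on the log2 scale, at an adjusted p under 0.001, between resting and anti-IgM libraries averaged over both genotypes, 272 raised and 304 lowered. Of the 272 raised genes, 0 were called between genotypes by edgeR, 8 in each direction had an unadjusted p under 0.05, against 5.14% of all genes in either direction, and limma with voom and DESeq2 called 2 each. The blocked fit called 2 higher and 1 lower, against 0.473% and 0.191% of all genes. The median genotype difference of the raised genes was −0.0883, with 99 fitted higher and 173 lower in KO. Of the 304 lowered genes, 0 were called by edgeR, 25 higher and 3 lower in KO had an unadjusted p under 0.05, limma with voom called 0 and DESeq2 called 1, and the blocked fit called 5, all higher in KO, against the same shares of all genes. Their median was 0.163, with 222 fitted higher and 82 lower. Without anti-IgM the medians had the same signs: in resting cells they were −0.121 for the raised and 0.0845 for the lowered genes, and with LPS −0.0899 and 0.0658. Without WT replicate 2 the anti-IgM medians were −0.0535 and 0.0607. Pair 1 differed from the others, with a median of 0.0171 for the raised genes. At a limit of 1 in place of 2 the medians were −0.0621 over 1272 raised and 0.0893 over 1452 lowered genes.

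Of the 6 genes with the strongest response, only Spp1 passed the test between genotypes, in the blocked fit. Il1r1, the interleukin 1 receptor, which was 5.19 higher after anti-IgM, stood at 27.9, 12.6 and 12.1 CPM in WT and 26.9, 10.05 and 9.95 CPM in KO cells. Replicate 1 was the highest of its genotype in both. Megf10, a phagocytic receptor of the EGF family, was 0.479, 0.265 and 0.101 CPM in WT and 0.533, 0.595 and 0.502 CPM in KO cells, which did not overlap and did not pass (adjusted p = 0.997). Cacna1i, a T-type calcium channel subunit, whose level dropped by 4.73 after anti-IgM, was 5.51, 4.28 and 8.61 CPM in WT and 6.29, 5.07 and 9.72 CPM in KO cells. Tmprss13 and Gm3227, the other strongly lowered genes, were at or below 0.274 CPM in all 6 libraries.

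Classic antigen receptor response genes leaned the same way. Of 52 tested, 39 were fitted lower in KO and 13 higher, with a median of −0.143. That median was −0.0750 in resting cells and −0.0772 with LPS. In 8 of the 52 the KO libraries lay wholly below the WT libraries (5.08% of all genes), and in 1 wholly above (6.32%). In edgeR 0 were called and 3 had an unadjusted p under 0.05 (against 5.14% of all genes), 2 of them lower, and limma with voom and DESeq2 called 0. The blocked fit called 1, lower in KO, against 0.191% of all genes. It was Fosl2, a subunit of AP-1, at 60.8, 91.6 and 91.5 CPM in WT and 48.8, 64.2 and 58.0 CPM in KO cells (−0.51 ± 0.215, adjusted p = 0.897, blocked 0.0215). Nr4a1, an orphan nuclear receptor used as a reporter of BCR signaling, was 996, 917 and 989 CPM in WT and 860, 671 and 706 CPM in KO cells without overlap (−0.38 ± 0.203, adjusted p = 0.997). Cd83, an activation marker of B cells, was 1190, 1232 and 1372 CPM against 1004, 959 and 1077 CPM, also without overlap (−0.32 ± 0.154, adjusted p = 0.987). Neither passed the test in either fit, and both did with the block over the 6 libraries alone (adjusted p = 0.0266 and 0.019). The most abundant member, Irf4, which directs B cell activation and differentiation, was 1855, 1973 and 1954 CPM against 1754, 1666 and 1833 CPM (−0.14 ± 0.0728, adjusted p = 0.997). Tnfrsf9, a costimulatory receptor, had the largest fitted difference and was the higher in KO, at 3.39, 4.13 and 3.90 CPM in WT against 5.59, 6.80 and 5.202 CPM, and did not pass (0.63 ± 0.274, adjusted p = 0.904).

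Myc, the growth regulator that BCR crosslinking induces, was 823, 1021 and 920 CPM in WT and 750, 789 and 739 CPM in KO cells. All KO libraries were below all WT libraries, and the difference of −0.28 ± 0.180 did not pass (adjusted p = 0.997, blocked 0.301). Ccnd2, a D-type cyclin that carries B cells through G1, was 159, 185 and 134 CPM in WT and 177, 199 and 193 CPM in KO cells. The Ccnd2 groups overlapped, and the 95% interval of the difference of 0.25 ran from −0.13 to 0.63. Ccnd3 was 33.0, 29.9 and 29.9 CPM in WT and 33.8, 33.1 and 33.9 CPM in KO cells (0.12 ± 0.0599, adjusted p = 0.997, blocked 0.408). The Ccnd3 groups did not overlap, KO being the higher, a pattern found in 6.32% of all genes. Neither cyclin mRNA was detectably lower in KO cells at 4 hr. Of 25 tested G1 cyclins, cyclin-dependent kinases and their inhibitors, 15 were fitted higher and 10 lower with a median of 0.0319. For this list edgeR, in both fits, limma with voom and DESeq2 called 0, and 0 had an unadjusted p under 0.05. Cdk4 was 304, 358 and 331 CPM against 305, 340 and 315 CPM. Of 30 DNA replication genes, 18 were fitted higher and 12 lower (median 0.0178), and the largest difference was that of Pola1, the catalytic subunit of polymerase alpha, at 22.4, 23.9 and 24.9 CPM against 29.8, 29.7 and 26.8 CPM (adjusted p = 0.48, blocked 0.15). No DNA replication gene was called by edgeR in either fit, by limma with voom or by DESeq2, and 1 had an unadjusted p under 0.05.

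The receptor and its signaling molecules were at WT levels within the error. Of 42 tested genes of the BCR complex and proximal signaling, 25 were fitted higher and 17 lower, with a median of 0.00237, and the 95% interval lay within 1 on the log2 scale for all 42. Cd79b, a signaling chain of the receptor, was 912, 719 and 720 CPM in WT and 868, 782 and 862 CPM in KO cells. The kinase gene Fyn had the largest difference, at 597, 767 and 954 CPM against 554, 622 and 762 CPM, and its groups overlapped (−0.26 ± 0.282, adjusted p = 0.997). Among 15 genes of the BCL2 family, which sets the threshold for apoptosis, 7 were fitted higher and 8 lower, and Mcl1 was 625, 582 and 581 CPM against 595, 620 and 670 CPM. Neither list had a call in either fit, by limma with voom or by DESeq2, and 1 gene of each had an unadjusted p under 0.05.

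**Figure D4:**
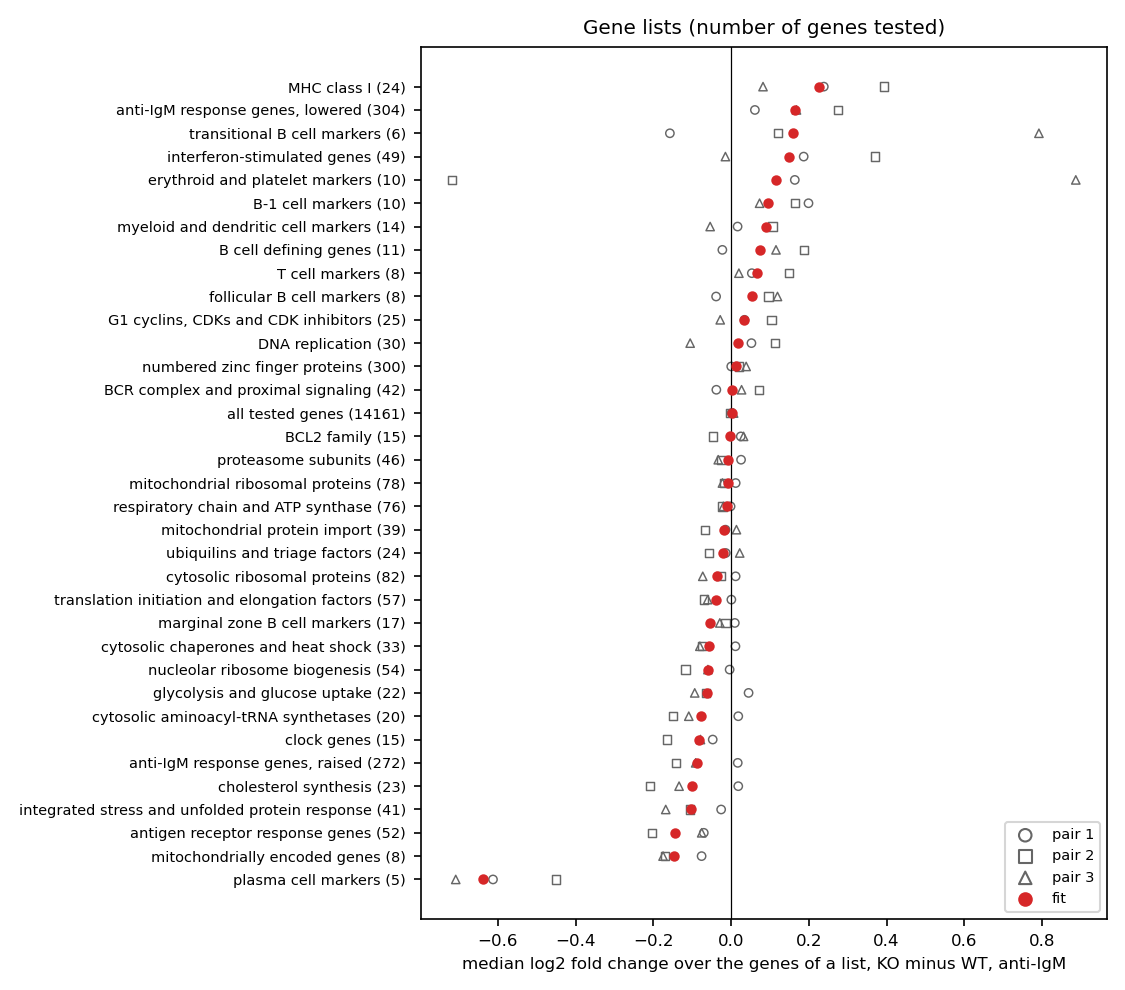
Median log2 fold change of KO over WT after anti-IgM (horizontal axis) over the tested genes of each list, whose number follows the name. Red points are the fit and open symbols the 3 same-numbered pairs. MHC class I genes lie highest at 0.225 and plasma cell markers lowest at −0.637, and for several lists the pairs fall on both sides of 0.

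The integrated stress response and the unfolded protein response raise chaperones and amino acid genes when proteins misfold or translation stalls. Of 41 tested genes 34 were fitted lower and 7 higher in KO, with a median of −0.102. That median was −0.0681 in resting cells and −0.0330 with LPS. In edgeR 0 were called and 2 had an unadjusted p under 0.05, both lower, and limma with voom and DESeq2 called 0. The blocked fit called 2, both lower, against 0.191% of all genes. Asns, which makes asparagine and is a target of ATF4, was 31.7, 44.6 and 39.9 CPM in WT and 21.4, 34.4 and 27.7 CPM in KO cells, lower in each pair but with overlapping groups (−0.48 ± 0.269, adjusted p = 0.997, blocked 0.0248). Ppp1r15a, which encodes GADD34, the phosphatase subunit that restores translation after stress, was 117, 145 and 137 CPM against 105, 106 and 108 CPM without overlap (−0.32 ± 0.112, adjusted p = 0.678, blocked 0.0452). Atf4 itself was 493, 597 and 551 CPM against 456, 502 and 465 CPM (−0.21 ± 0.109, adjusted p = 0.997, blocked 0.163). Trib3, a further ATF4 target, was 30.1, 57.01 and 58.1 CPM against 29.5, 39.2 and 40.1 CPM, nearly equal in the first pair. Ddit3, which encodes CHOP, was 64.8, 70.3 and 64.4 CPM against 64.0, 67.6 and 57.5 CPM. Hspa5, the chaperone BiP of the endoplasmic reticulum, was 1195, 1239 and 1239 CPM against 1184, 1108 and 1048 CPM (−0.14 ± 0.0764, adjusted p = 0.997). No gene of these pathways rose in KO cells.

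Cytosolic chaperones were also mostly fitted a little lower. Of 33 tested, 27 were fitted lower and 6 higher, with a median of −0.0565, and edgeR in both fits, limma with voom and DESeq2 called 0 of them, with 0 at an unadjusted p under 0.05. Hsp90ab1, the most abundant, was 3893, 4173 and 4304 CPM in WT and 4000, 4093 and 4014 CPM in KO cells. Hspa1b, the inducible HSP70, was 1.44, 6.78 and 6.03 CPM against 2.23, 3.60 and 4.97 CPM and overlapped. Of 46 proteasome genes, 20 were fitted higher and 26 lower, with a median of −0.00760. Psme3, a proteasome activator, was 514, 555 and 546 CPM against 514, 509 and 533 CPM. The same fits and tools called 0 of the proteasome genes as well, with 0 at an unadjusted p under 0.05.

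Genes for the machinery of protein synthesis lay slightly below 0. Of 54 nucleolar genes of ribosome biogenesis, 52 were fitted lower and 2 higher, with a median of only −0.0587, medians of −0.00379, −0.118 and −0.0597 in the 3 pairs, and a lowest value of −0.13. That lowest gene was Nop16, at 128, 141 and 141 CPM in WT and 127, 122 and 126 CPM in KO cells. Ncl, which encodes nucleolin, was 3292, 3974 and 4044 CPM against 3349, 3651 and 3812 CPM. Of 20 cytosolic aminoacyl-tRNA synthetases, which charge tRNAs with amino acids, 15 were fitted lower (median −0.0767). Of 82 ribosomal protein genes 59 were fitted lower (median −0.0365), and of 57 translation initiation and elongation factors 40 were (median −0.0395). For the first 3 of these lists edgeR in both fits, limma with voom and DESeq2 called 0 genes, and 0 had an unadjusted p under 0.05. Among the translation factors 1 had, and 0 were called by any of them. Without anti-IgM the medians of these lists, in the order given, were −0.0627, −0.0692, −0.0565 and −0.0246 in resting cells. With LPS they were −0.0142, −0.0482, 0.0208 and −0.00248. Eef2, the elongation factor of translocation, was 3170, 3240 and 3496 CPM against 3299, 3302 and 3378 CPM.

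Nuclear genes for mitochondrial proteins differed little between genotypes. Of 76 genes of the respiratory chain and ATP synthase, 32 were fitted higher and 44 lower, with a median of −0.0113, and all 76 had a 95% interval within 1. Atp5b, the catalytic subunit of ATP synthase, was 1044, 1196 and 1188 CPM in WT and 1056, 1125 and 1107 CPM in KO cells. Of 78 mitochondrial ribosomal protein genes, 34 were fitted higher and 44 lower (median −0.00912). Of 39 genes of mitochondrial protein import, 14 were fitted higher and 25 lower (median −0.0179), and Hspa9, the matrix chaperone that pulls proteins in, was 790, 1012 and 1060 CPM against 787, 884 and 901 CPM. In these 3 lists edgeR in both fits, limma with voom and DESeq2 called 0 genes, and 1 gene, of a mitochondrial ribosomal protein, had an unadjusted p under 0.05. Cox6b2, described with the blocked calls, is not on the respiratory chain list. Of the 8 tested genes of the mitochondrial genome, 7 were fitted lower in KO, with a median of −0.147. That median was −0.114 in resting cells and −0.110 with LPS. CYTB was 3240, 3406 and 3590 CPM in WT and 3019, 3000 and 3160 CPM in KO cells, and ND6 was 850, 893 and 979 CPM against 761, 795 and 816 CPM. In both, the KO libraries were below the WT libraries, and neither passed (ND6 −0.20 ± 0.0836, adjusted p = 0.897, blocked 0.0502). TrnE, a mitochondrial tRNA gene that is not on the list and was chosen after its values were seen, fell in the blocked fit, at 34.2, 35.2 and 40.3 CPM against 28.8, 28.9 and 31.99 CPM (−0.29 ± 0.100, adjusted p = 0.659, blocked 0.045).

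Metabolic lists showed nothing that passed. Of 23 genes of cholesterol synthesis, 18 were fitted lower (median −0.0996), and of 22 genes of glycolysis and glucose uptake, 15 were (median −0.0632). In edgeR 0 of them were called in either fit, with 2 and 1 at an unadjusted p under 0.05, and limma with voom and DESeq2 called 0. Srebf2, the transcription factor of the cholesterol pathway, was 897, 907 and 882 CPM against 909, 821 and 879 CPM. Aldoa, a glycolytic aldolase, was 637, 623 and 702 CPM against 634, 586 and 649 CPM. Of 15 clock genes 11 were fitted lower, with Nfil3 at 4.07, 5.57 and 8.56 CPM against 4.23, 4.603 and 5.38 CPM. Of 300 numbered zinc finger genes, 169 were fitted higher and 131 lower. Zfp839 was the one called without the block, and the blocked fit called 3 as higher, against 0.473% of all genes. Chosen after their values were seen, the other two were Zfp41, at 5.98, 6.48 and 7.34 CPM against 8.79, 8.80 and 8.62 CPM (blocked adjusted p = 0.0416), and Zfp846, at 5.74, 5.68 and 4.86 CPM against 7.72, 7.80 and 7.48 CPM (blocked adjusted p = 0.0489).

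The cells were checked against markers. The 11 genes that define B cells summed to between 3508 and 4506 CPM in WT and between 3886 and 4399 CPM in KO libraries, led by Cd79b. Markers of T cells summed to 182 to 295 CPM in WT and 195 to 311 CPM in KO libraries, mostly Lck, with 1 of 15 genes at 0 in all 6. Cd247 was 36.7 to 51.7 CPM, and Cd5, Cd28 and Tcf7 lay between 3.45 and 22.2 CPM. Cd3d, Cd3e, Cd3g and Cd4 were each at or below 0.319 CPM in every library. The 11 of NK cells and innate lymphoid cells summed to 9.43 to 12.6 CPM against 8.55 to 9.99 CPM, with 2 at 0. Those of myeloid and dendritic cells summed to 88.1 to 140 CPM against 114 to 138 CPM, led by Mpeg1, those of erythroid cells and platelets to 7.60 to 11.3 CPM against 8.08 to 12.1 CPM, and those of stromal and endothelial cells to 30.9 to 50.1 CPM against 37.9 to 47.4 CPM, mostly Pecam1 and with 3 of 13 at 0. The ranges of these lists overlapped between genotypes. Of 14 tested myeloid and dendritic genes, 10 were fitted higher and 4 lower in KO, with a median of 0.0891. None was called without the block, and the blocked fit called 1, lower in KO, against 0.191% of all genes. That gene was Vcam1, an adhesion molecule of stromal cells and macrophages, at 0.558, 0.492 and 1.57 CPM against 0.233, 0.0939 and 0.456 CPM (blocked adjusted p = 0.0492). The level of Vcam1 was low in all 6 libraries and highest in WT replicate 3. Xist was between 1162 and 1476 CPM in all 6 libraries, and Eif2s3y, Kdm5d and Uty of the Y chromosome were at 0 in all 6.

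Plasma cell markers were the exception among these lists. Their sum was 241, 218 and 414 CPM in WT and 157, 166 and 191 CPM in KO libraries, so the genotypes did not overlap. All 5 tested genes were fitted lower, with a median of −0.637 against 0.00199 for all genes, while in edgeR 0 were called and 2 had an unadjusted p under 0.05, against 5.14% of all genes. Limma with voom called 0, and DESeq2 and the blocked fit called 1 each, against 0.191% of all genes lower in the blocked fit. The median was also negative in resting cells, at −0.455, and with LPS, at −0.321. Prdm1, which encodes BLIMP-1, the transcription factor that drives plasma cell differentiation, was 23.1, 18.9 and 20.3 CPM in WT and 13.2, 13.8 and 13.1 CPM in KO cells (−0.64 ± 0.156, adjusted p = 0.238, blocked 0.0323). Jchain, which links IgM into pentamers and makes up most of the sum, was 167, 161 and 359 CPM against 105, 116 and 138 CPM (−0.93 ± 0.372, adjusted p = 0.843, blocked 0.0792). WT replicate 3 was the highest library in Jchain, and also in Slpi, a protease inhibitor, at 1.68, 1.52 and 5.47 CPM against 1.13, 0.940 and 1.41 CPM. Sdc1, which encodes CD138, was 46.3, 34.1 and 25.3 CPM against 36.0, 33.2 and 35.5 CPM and overlapped, with a fitted difference of −0.0177 that was 0.00545 in the blocked fit. In bulk RNA, fewer cells of a type and less RNA per cell cannot be told apart.

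Subsets of splenic B cells showed no called marker in either fit. Marginal zone markers had a median of −0.0556 over 17 genes and follicular markers one of 0.0531 over 8. Dtx1, a marginal zone gene, was 379, 391 and 456 CPM against 347, 349 and 405 CPM. B-1 cell markers had a median of 0.0957 over 10 genes, led by S100a6, a calcium-binding protein, at 1.48, 1.10 and 1.72 CPM against 2.43, 1.91 and 2.28 CPM (0.64 ± 0.239, adjusted p = 0.766). Transitional markers had a median of 0.158 over 6 genes, with pairs on both sides of 0.

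Finally, the genotype difference after anti-IgM was set beside those in resting and LPS-treated cells, to see whether it depended on BCR crosslinking. Of the 14 called genes, 14 had the same sign in both other conditions. The comparison called 8 genes in resting cells (0.0565%) and 6 with LPS (0.0424%), of which 2 and 3 were among the 14. In resting cells 0.0212% of genes were higher in KO and 0.0353% lower, and with LPS 0.0141% and 0.0282%. In the blocked fit it called 49 (0.346%, 0.198% higher and 0.148% lower) and 125 (0.883%, 0.275% higher and 0.607% lower). Of the 94 genes of the anti-IgM comparison 25 were also called in resting cells, 32 with LPS and 22 in all 3 conditions, in the same direction. Their signs were the same in all 3 conditions for 93 of 94. The difference was larger after anti-IgM than in both other conditions for 74 of the 94, a count that the choice of genes by their anti-IgM values favors.

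The difference between conditions was also tested directly, gene by gene. Against resting cells edgeR called 0 genes (0%), with 140 at an unadjusted p under 0.05 (0.989%), and against LPS it also called 0 genes (0%), with 230 (1.62%). The blocked fit called 0 in both, with 377 (2.66%) and 445 (3.14%) at an unadjusted p under 0.05. Limma with voom called 0 in both, and DESeq2 called 0 against resting cells and 2 against LPS. With the block, leaving out replicate 2 gave 8 calls against LPS and leaving out replicate 3 gave 1, and without the block leaving out WT replicate 3 gave 1. Vill differed by 2.46 after anti-IgM, 2.25 in resting cells and 2.34 with LPS. Ubqln1 differed by −1.42, −1.27 and −1.44. H2-Q6 differed by 0.40, 0.32 and 0.23, and H2-Q7 by 0.63, 0.55 and 0.45. Rgs16 differed by 0.69, 0.20 and 0.09, Il9r by 0.76, 0.32 and 0.30, and Spata13 by 0.56, 0.23 and 0.17, and for these 3 the test of the difference between conditions did not pass in either fit. As a list, MHC class I genes had medians of 0.225, 0.15 and 0.06 in the 3 conditions, and interferon-stimulated genes of 0.149, 0.19 and −0.59.

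**Figure D5:**
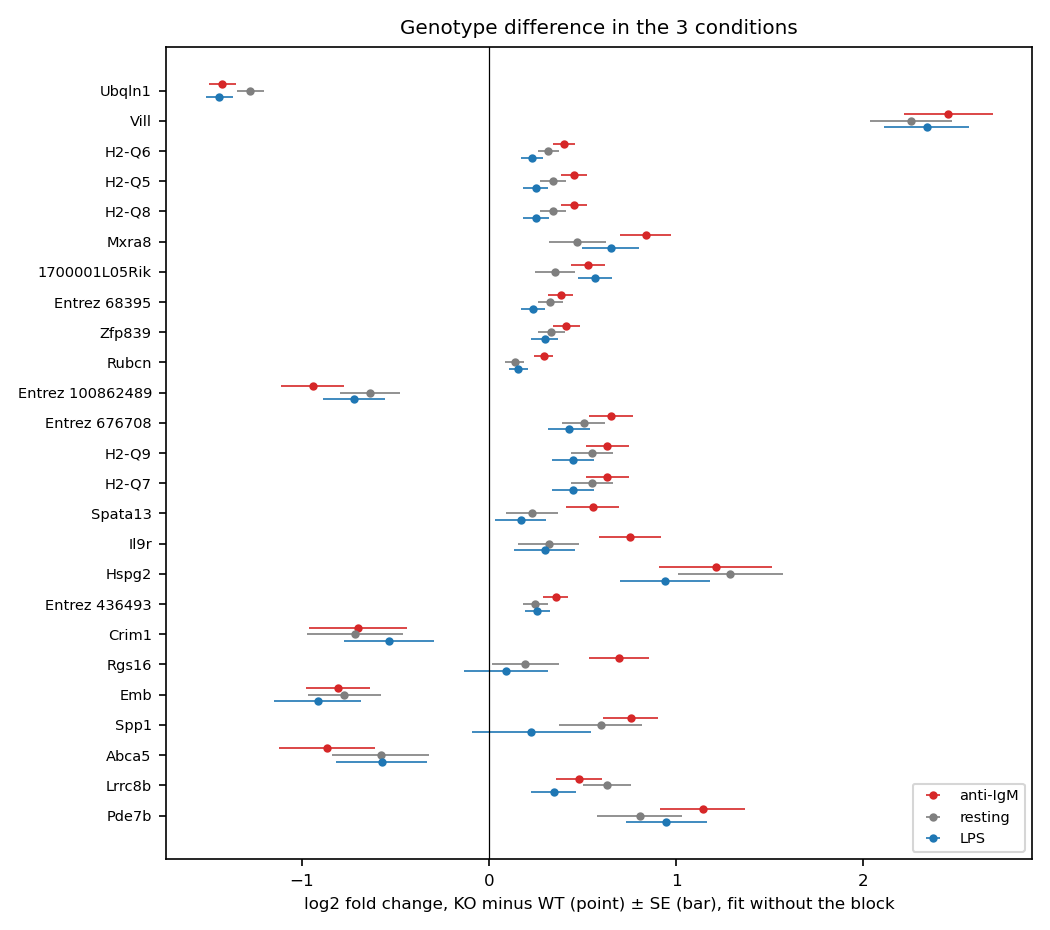
Log2 fold change of KO over WT with ± SE bars (horizontal axis, fit without the block) for the 14 called genes and for 11 called only in the blocked fit, after anti-IgM (red), in resting cells (grey) and with LPS (blue). For each gene the 3 points lie on the same side of 0, with those of Vill around 2 and those of Ubqln1 below −1.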

How the data were processed

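RNASeq was done on polyA RNA from 18 libraries of WT and Ubqln1-/- splenic B cells, 6 of them after anti-IgM. Per the labels and file headers, GSNAP placed the reads on GRCm38, and the files deposited by the authors list, by Entrez ID, a count of exonic reads that was not normalized and an RPKM. The deposited RPKM values imply a library total above the sum of counts. Library preparation did not mark strand, so overlapping genes cannot be told apart, and the treatment of multi-mapping reads is not given in the sources used here. Symbols came from RefSeq (GRCm38.p6) for 25035 of 28096 Entrez IDs (89.1%).

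Counts were filtered (filterByExpr), scaled by TMM and fitted over all 18 libraries with 1 term per group in edgeR 4.0.16 (quasi-likelihood test, R 4.3.3), in place of the limma models of the study. The SE is the log2 fold change divided by the root of F. Alternatives were limma 3.58.1 with voom, DESeq2 1.42.0, RLE scaling, other filters, the groups compared alone, a replicate block and leaving out libraries. Replicate numbers from the labels were taken as pairing the samples, an unnumbered library being number 1 by elimination: deviations from the group means correlated at 0.388, 0.211 and 0.205 for same-numbered WT and KO libraries and at −0.230 to 0.0256 otherwise. Fits were tested on simulated data. The members and the 37 gene lists were chosen with earlier results of these data known, and a list was described by counts and medians, without a test.

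Named were all genes called, the 12 of smallest p in the blocked fit alone (same direction in all pairs, mean of at least 1 CPM), Ubqln1, Ubqln2, Ubqln4, Myc, Ccnd2 and Ccnd3, the largest difference and highest level in each list, and the 3 strongest responses either way. Other named genes, among them H2-K1, H2-D1, Tap1, Gbp3, Gbp5, Fosl2, Nr4a1, Cd83, Ppp1r15a, Atf4, Trib3, Ddit3, Prdm1, Sdc1, Nlrx1, Clpb, Cox6b2, TrnE, Zfp41 and Zfp846, were chosen after their values were seen. A few genes under the rule are not reported here.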

Additional observations from a re-analysis of the deposited data

Results flagged for a closer look

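For 7 genes every same-numbered pair moved one way between genotypes after anti-IgM and every pair the opposite way in another condition, and none passed the edgeR test of that difference. The differences in log2 fold change, anti-IgM minus the other condition, are given with their SE. Against resting cells it was −0.141 ± 0.184 for Cyfip2, a regulator of actin (adjusted p = 0.999912). Against LPS it was −0.157 ± 0.184 for Cyfip2, 0.144 ± 0.0840 for Ccnd3, 0.304 ± 0.0748 for Adar, 0.543 ± 0.203 for Gbp5, 0.408 ± 0.436 for Mpeg1, −0.441 ± 0.198 for Rps23 and 0.706 ± 0.340 for Mrpl23 (adjusted p = 0.999945 for each). Groups of 3 libraries were too small for a check of single outlying libraries.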

How the results depend on the processing

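Ubqln1 kept its direction and call, and the 2 medians of the response genes their direction under every alternative run, Ubqln1 between −1.48 and −1.36. On leaving out 1 library the median of the lowered genes, 0.163 as reported, ran from 0.0607 without WT replicate 2 to 0.239 without WT replicate 3, and that of the raised genes from −0.0940 to −0.0535. Of 221 checks of the other 13 called genes, 128 kept the call, 93 lost it and 0 changed sign. Of 612 list medians under alternatives, 576 moved by less than the spread between pairs and 36 by more. The analysis of hydrophobic proteins was not run, since no protein table was at hand.

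The count of calls between genotypes, 14 as reported, was 47 with DESeq2, 94 with the replicate block, 2 with the groups compared alone and 85 with both of these last choices, 51 of them among the 94. With the block and without replicate 1, 2 or 3 it was 73, 6 and 25. Leaving out 1 library gave 2 to 10. It was 18 with limma and voom, 13 with RLE scaling and 14 with either filter. Past the log2 fold change of 2 and adjusted p under 0.001, 1 gene as reported, there were 2 with DESeq2, 2 with the replicate block, 0 with the groups alone, 2 with both, and 2, 3 and 2 with the block and without replicate 1, 2 or 3. Leaving out 1 library gave 0 to 1, with 0 without WT replicate 2 or 3. The test against LPS, 0 as reported, gave 2 with DESeq2, 8 with the block and without replicate 2, 1 with the block and without replicate 3, and 0 to 1 on leaving out 1 library. The percentage of genes with an interval within 1, 87.9 as reported, was 86.3 with DESeq2, 63.2 with no filter, 97.1 with at least 10 counts in every sample, 90.1 with the replicate block, 91.0 with the groups alone, 93.2 with both, 85.4, 85.2 and 86.5 with the block and without replicate 1, 2 or 3, and 83.8 to 84.7 on leaving out 1 library. The cause of these shifts was not tested. Besides the calls given with the results, the replicate block changed no other call among the genes named.

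Some genes changed sign. Many of these lay near 0, while others, among them Tmprss13, Il1r1, Cdkn2b and Slc4a1, reached values well away from it. The log2 fold change was for Ubqln2 −0.00341 with DESeq2, −0.00220 with RLE scaling and −0.00218 with at least 10 counts in every sample. For Sdc1 it was 0.0101 with limma and voom and 0.00545 with the replicate block. With the replicate block and without replicate 1 it was Sdc1 0.217, Asb2 −0.0347, Lck −0.000834, Eef2 −0.0101 and Zfp106 −0.0116. Without replicate 2 it was Sdc1 0.0290, Ubqln4 0.0429, Hspa1b 0.086, Srebf2 0.00607 and Pecam1 −0.0328, and without replicate 3 Ubqln2 −0.0185, Hsp90ab1 0.00592, Cd24a −0.0124, Slc4a1 −0.352 and Nnt −0.0035. Leaving out 1 library at a time gave these ranges: Sdc1 (−0.206 to 0.227), Mpeg1 (−0.015 to 0.434), Cyfip2 (−0.173 to 0.0446), Eef2 (−0.0186 to 0.052), Zfp106 (−0.0557 to 0.0623), Il1r1 (−0.815 to 0.346), Tmprss13 (−2.69 to 1.74), Ubqln4 (−0.107 to 0.0656), Cdk4 (−0.106 to 0.00983), Eprs (−0.186 to 0.0206), Ccr7 (−0.166 to 0.0521), Lck (−0.273 to 0.301), Pecam1 (−0.124 to 0.22), Cacna1i (−0.0815 to 0.493), Ubqln2 (−0.0153 to 0.0191), Cd24a (−0.0357 to 0.168), Nnt (−0.0297 to 0.213) and Cdkn2b (−0.095 to 0.541). The cause was not tested.

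Depth and 3 libraries a group left the median gene with an interval of 0.240 to either side, and a gene of that precision needed a larger difference before its interval left out 0. A call at adjusted p under 0.05 needed a difference larger still, since the interval is not adjusted for the number of genes.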
